A study of Mus musculus with 19 samples.

Results

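The 75 genes described here encode proteins of the cytosolic ribosome in mouse. They were taken by symbol: Rpl or Rps followed by a number and an optional letter, together with Rplp0, Rplp1, Rplp2 and Rpsa. Pseudogenes, genes for ribosomal S6 kinases and paralogs with an -like symbol were left out. The rule found 44 proteins of the large subunit and 31 of the small subunit among 37668 listed genes, and all 75 were listed above 0 in every group. Rps3a1 was counted under its older symbol, Rps3a, and Rpl24 and Rpl41 were not analysed here.

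The samples were aortas of male C57BL/6 mice, either wild type or Fbn1mgR/mgR, at 16, 30 and 60 days of age. Fbn1mgR/mgR mice carry a hypomorphic allele of the fibrillin-1 gene in all cells and serve as a model of severe Marfan syndrome. Fibrillin-1 is the main protein of the microfibrils that surround elastic fibres in the aortic wall. By the labels, each genotype had 3 libraries at 16 days and 4 at 30 days. The oldest age had 3 from hypomorphs and 2 from wild-type mice. The authors deposited 1 pooled FPKM (a level corrected for transcript length and for the number of fragments mapped) per gene and group. No level therefore has an SD or n, and the sequencing depth is unknown. The only test is the authors' own at 16 days, and nothing checks the later ages against the spread between animals.

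Every ribosome holds a large subunit, which joins amino acids, and a small subunit, which reads the messenger RNA. Their proteins are made in matched amounts and are among the most abundant products of most cells. Messenger RNAs for ribosomal proteins begin with a C followed by a run of C and T bases, the 5′ terminal oligopyrimidine (TOP) tract. This tract ties their translation to the kinase mTOR and to the binding protein LARP1. In the aorta, ribosomal proteins are made by smooth muscle cells, fibroblasts, endothelium and blood-derived cells alike. In bulk tissue, fewer cells of a type and less RNA per cell cannot be told apart.

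A pyrimidine run at the start site was found in 28 of the 55 members with a promoter sequence, and the windows of 8 that carry it are shown first. Each window, from RefSeq on GRCm38.p6, covers 12 bases before the annotated start and 18 bases from it, on the gene's own strand. Capitals mark a run of at least 8 C or T bases. The coordinates belong to a later build than the mm9 positions of the expression tables.
Rpl13a, chr7:45128728-45128757, minus strand: accctgcgacaagaCCTCCTCCTTTCCCag
Rps27, chr3:90213631-90213660, minus strand: tccgctttcgCTCCTTTCCggcggtgacga
Rpl28, chr7:4792953-4792982, plus strand: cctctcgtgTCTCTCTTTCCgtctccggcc
Rpl14, chr9:120571505-120571534, plus strand: cgggCCCTCTCTCTTCTCgctgagcgccgc
Rps6, chr4:86857350-86857379, minus strand: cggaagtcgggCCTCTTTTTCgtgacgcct
Rpl35, chr2:39005114-39005143, minus strand: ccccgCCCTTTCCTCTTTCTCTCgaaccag
Rplp2, chr7:141447639-141447668, plus strand: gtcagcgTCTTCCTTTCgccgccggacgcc
Rps10, chr17:27635227-27635256, minus strand: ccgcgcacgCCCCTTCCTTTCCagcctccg
The windows of 2 of the members with no such run are shown for contrast, since Rps15 had one of the most negative and Rps3 one of the least negative differences in the hypomorph.
Rps15, chr10:80292419-80292448, plus strand: ggcagagctcgcgataactgcgcaagcgca
Rps3, chr7:99483692-99483721, minus strand: gcaagggtcgccgcgctgcgcggcgtcatt

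The 55 were those of the 75 members matched to a promoter. Within 20 bases on either side of the annotated start, 28 (50.9%) held a run of at least 8 C or T bases on the gene's strand. Among all 27025 genes with a promoter, 4965 (18.4%) held one. The opposite strand's run, at least 8 A or G bases, was found in 4 members (7.27%) and in 20.2% of all genes. A match describes the letters in this window only, and an annotated start can lie several bases away from the one used. Members with and without the run had close differences between genotypes, as given further on.

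Ribosomal protein transcripts were abundant in all 6 groups. Each member exceeded 100 FPKM in every group, and the 75 members were among 793 genes whose mean reached 100 FPKM at 16 days. At 16 days the median member was at 529.3 FPKM in wild type and 405.5 FPKM in the hypomorph. The medians at 30 days were 554.3 and 410.3 FPKM, and those at 60 days were 593.2 and 495.9 FPKM, again with wild type first. Hypomorph aorta thus had the lower median at each of the 3 ages.

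Summed over the 75 members, wild type held 44219 FPKM and the hypomorph 33667 FPKM at 16 days, a ratio of 1.31. At 30 days the sums were 45799 and 33976 FPKM, a ratio of 1.35. At 60 days they were 50303 and 41201 FPKM, a ratio of 1.22. As a share of all listed FPKM, the members made up 8.32% in wild type and 6.34% in the hypomorph at 16 days. The shares were 8.62% and 6.77% at 30 days, and 8.35% and 7.42% at 60 days. The wild-type share was the higher at each age. Mitochondrially encoded genes are part of these totals and stood at 82335 FPKM in wild type and 40054 FPKM in the hypomorph at 60 days. Without them the shares at 60 days were 9.67% and 7.99%, and the log2 ratio was −0.27 instead of −0.17.

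**Figure D1:**
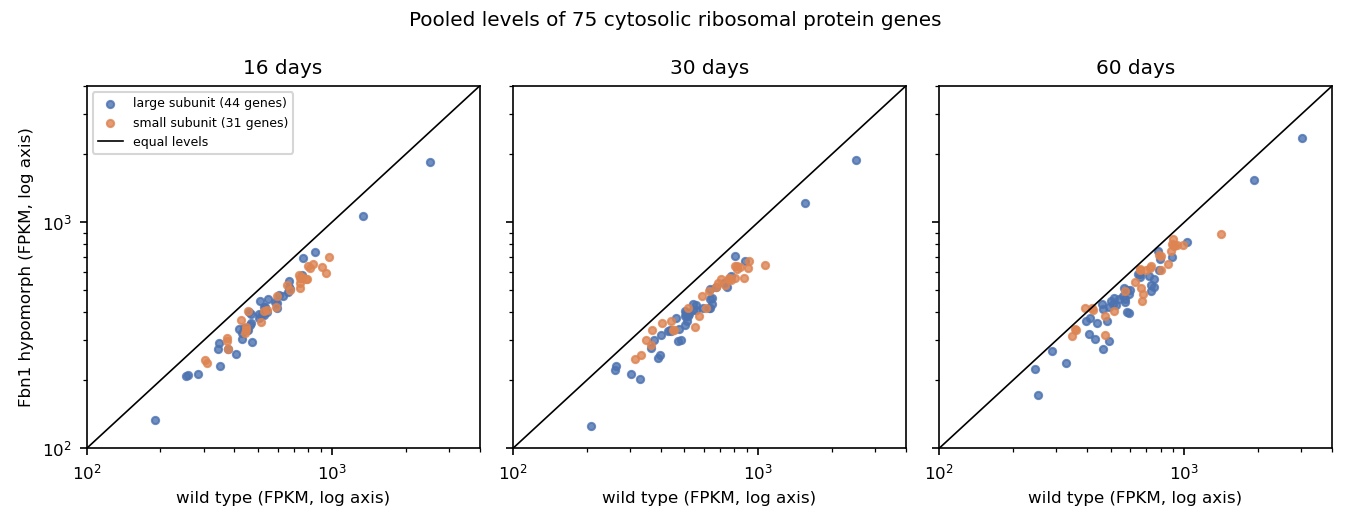
Pooled level of each of the 75 ribosomal protein genes in the hypomorph (vertical, FPKM, log axis) against wild type (horizontal, FPKM, log axis) at 16, 30 and 60 days, 1 point per gene, coloured by subunit, with a line of equal levels. All points lie below the line at 16 and 30 days, and 1 gene, Rps10, lies above it at 60 days, at 417.4 FPKM against 394.9 FPKM.

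The most abundant member was Rpl13a (ENSMUSG00000074129, chromosome 7, 52380928 to 52391802 on mm9), a large-subunit protein that also takes part in silencing inflammatory transcripts. In wild type it was at 2505.2, 2516.1 and 3014.1 FPKM at 16, 30 and 60 days, and in the hypomorph at 1849.6, 1876.6 and 2360.6 FPKM. The wild-type value was 1.35, 1.34 and 1.28 times that of the hypomorph. Its listed span overlaps 5 other genes, small nucleolar RNA genes in introns among them. The next most abundant were Rplp1, Rps15, Rps14 and Rps27.

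At the other end, Rpl37 (ENSMUSG00000041841, chromosome 15, 5066613 to 5069140 on mm9) had the lowest mean level. It was listed at 190.4, 208.1 and 254.0 FPKM in wild type and at 133.0, 126.0 and 172.8 FPKM in the hypomorph. Rpl15, Rpl27, Rpl29 and Rps13 followed it from below. From lowest to highest member the range within a group was 12.1-fold to 14.9-fold, although most of the proteins enter the ribosome in equal numbers. FPKM is scaled to length, but reads shared with processed pseudogenes can move a single gene's level.

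The order of the members hardly differed between genotypes. Across the 75 genes, the rank correlation of hypomorph with wild-type level was 0.97 at 16 days, 0.97 at 30 days and 0.94 at 60 days. Between wild type at 16 days and wild type at 60 days it was 0.95. These are descriptions across genes, which are not independent replicates, and groups of an age share a table.

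Ribosomal protein genes stood lower in the hypomorph almost without exception. At 16 days 75 of 75 were lower, against 49.5% of the 14028 genes compared. At 30 days 75 of 75 were lower, against 45% of 13930 genes. At 60 days 74 of 75 were lower, against 37.4% of 13992 genes. In FPKM as deposited Rps10 was the one member on the other side, an exception that depended on scaling. The 74 members lower at all 3 ages compare with 22.3% of 13373 genes. Members share reads with pseudogenes and vary together, so these counts are not independent observations.

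The size of the difference was modest. On the log2(FPKM + 1) scale, hypomorph minus wild type, the members' median was −0.40 at 16 days, −0.41 at 30 days and −0.24 at 60 days. The medians of all compared genes were 0.00, 0.04 and 0.11. The middle 50% of members lay between −0.44 and −0.33 at 16 days, between −0.50 and −0.35 at 30 days and between −0.38 and −0.16 at 60 days. Within 0.1 of the members' own median lay 54 of 75 genes at 16 days, 48 at 30 days and 36 at 60 days.

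Most members stayed below a 1.5-fold difference. At 16 days 4 of 75 were at least 1.5-fold lower, against a background of 5.34%. At 30 days there were 11 of 75, against 6.93%, and at 60 days there were 3 of 75, against 7.59%. The members' share was thus near the background at 16 days, above it at 30 days and below it at 60 days. None was at least 1.5-fold higher at any of the 3 ages, where the backgrounds were 5.58%, 11.1% and 15.6%. The members thus differed in nearly uniform direction by amounts mostly below 1.5-fold. These counts moved with scaling: centred on genes of like transcript length they became 0, 1 and 5, and scaled by the median ratio of all compared genes the count at 60 days was 14.

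**Figure D2:**
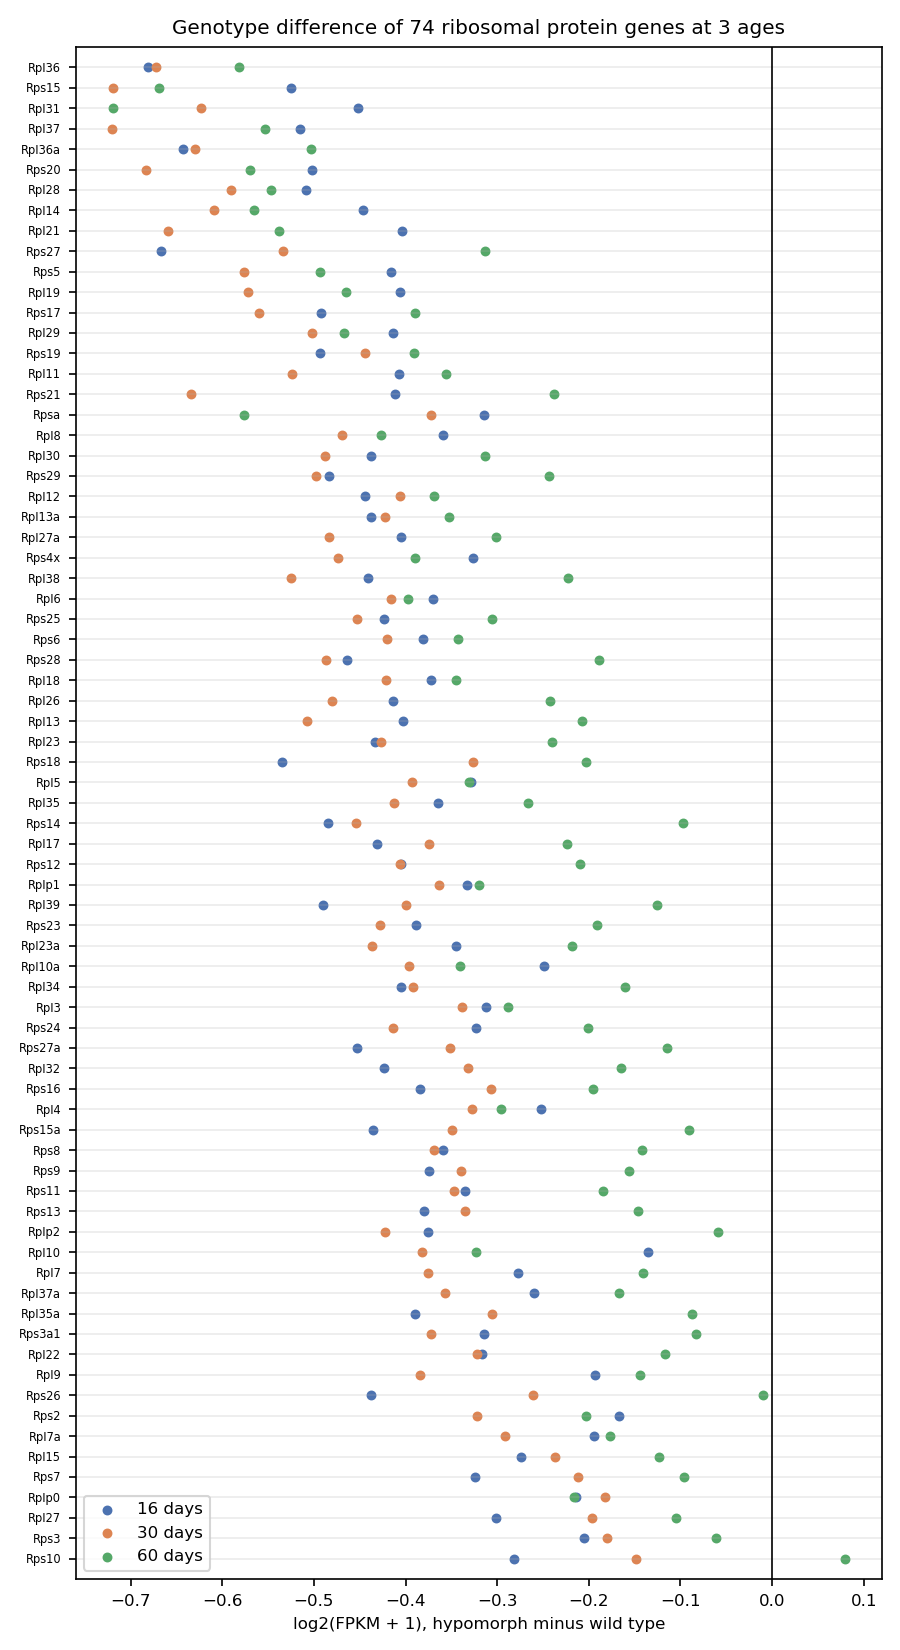
Difference between genotypes for 74 members (1 member is not shown) at 16, 30 and 60 days, as log2(FPKM + 1) of hypomorph minus wild type on the horizontal axis, with members ordered by their mean difference and 1 colour per age. Rps10 at 60 days, at 0.08, is the one point above 0.

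The authors' test at 16 days called no member. Of the members, 53 were tested in the authors' deposited table and 22 had a failed test, 29.3% of the members against 38.1% of all genes whose mean reached 100 FPKM. At q below 0.05 in the authors' deposited table, 0 of 53 were called, against 2.8% of 12738 tested genes in either direction and 1.47% called lower. At q below 0.1 the count in the authors' deposited table was also 0, against 3.45% of tested genes. At an unadjusted p below 0.05 the authors' deposited table held 3 members, all lower in the hypomorph, against 8.64% of tested genes. The shared direction of the 75 genes was therefore not matched by a call on any single gene.

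The 3 were Rps3, Rpl29 and Rpl11. Rps3, a small-subunit protein at the entry of the messenger RNA channel, had p = 0.00593 and q = 0.146 in the authors' deposited table. Its difference was only −0.20, but the standard error implied by the authors' deposited table was 0.075, the smallest among the members. Rpl11, which binds the p53 regulator MDM2 when ribosome assembly is disturbed, had p = 0.043 and q = 0.533 in the authors' deposited table. For Rpl29 the authors' deposited table gave p = 0.043 and q = 0.534. The median implied standard error of the tested members was 0.362 on the log2 scale, close to the size of the members' median difference.

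Both subunits stood lower to a like extent at 16 and 30 days. The median difference was −0.40 for the 44 large-subunit genes and −0.41 for the 31 small-subunit genes at 16 days. At 30 days the medians were −0.42 and −0.41, and at 60 days they were −0.30 and −0.20. Whether the gap at 60 days exceeds the spread between animals could not be tested.

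Rpl36 (chromosome 17, 56752818 to 56753666 on mm9), a large-subunit protein, stood well below wild type at each age. Its levels were 471.9, 483.4 and 592.3 FPKM in wild type and 294.0, 302.9 and 395.3 FPKM in the hypomorph. The differences were −0.68, −0.67 and −0.58, and the authors' deposited table gave p = 0.0722 and q = 0.689 at 16 days. At 16 days this was the most negative difference of any member. The hypomorph values at all 3 ages lay below every wild-type value.

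Rpl36a, an X-linked gene, stood at 407.7, 388.9 and 431.0 FPKM in wild type and at 260.8, 250.9 and 303.9 FPKM in the hypomorph. Its differences were −0.64, −0.63 and −0.50. For Rpl37, the member with the lowest level, they were −0.51, −0.72 and −0.55, and the value at 30 days was the most negative of any member at that age. Rpl31 differed more at each later age, at −0.45, −0.62 and −0.72, with 376.8, 397.0 and 494.2 FPKM in wild type against 275.1, 257.5 and 299.7 FPKM in the hypomorph. Rpl31 thus had its most negative value at the oldest age.

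Rps15 (ENSMUSG00000063457, chromosome 10, 79755176 to 79756859 on mm9), a protein of the small-subunit head, combined high level and large difference. It was at 910.7, 1063.2 and 1417.5 FPKM in wild type and at 632.5, 645.6 and 890.9 FPKM in the hypomorph. The folds, wild type over hypomorph, were 1.44, 1.65 and 1.59, and the differences were −0.53, −0.72 and −0.67. Its test at 16 days failed in the authors' deposited table. Rps20, also of the small-subunit head, stood at 511.6, 554.3 and 669.0 FPKM in wild type and at 360.9, 345.0 and 450.5 FPKM in the hypomorph. Its differences were −0.50, −0.68 and −0.57.

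Rps27, a zinc-binding small-subunit protein, showed its strongest difference at the youngest age. Its levels were 942.8, 909.6 and 985.5 FPKM in wild type and 593.6, 628.0 and 793.2 FPKM in the hypomorph. The folds were 1.59, 1.45 and 1.24, and the differences −0.67, −0.53 and −0.31. By this measure the gap in Rps27 was narrower at each later age, the opposite order to that in Rpl31.

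The stalk proteins recruit elongation factors to the large subunit, Rplp0 being the base to which Rplp1 and Rplp2 attach. Rplp1 (ENSMUSG00000007892, chromosome 9, 61761091 to 61762345 on mm9) was at 1340.1, 1556.2 and 1916.2 FPKM in wild type and at 1063.7, 1209.8 and 1534.8 FPKM in the hypomorph, with differences of −0.33, −0.36 and −0.32. Rplp0, often used as a reference gene in quantitative PCR, was at 852.9, 802.9 and 798.2 FPKM in wild type and at 735.1, 707.7 and 686.8 FPKM in the hypomorph. Its differences of −0.21, −0.18 and −0.22 were among the smaller ones at 16 and 30 days.

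Rplp2 stood at 667.9, 723.6 and 780.0 FPKM in wild type and at 514.8, 539.7 and 748.7 FPKM in the hypomorph, with differences of −0.38, −0.42 and −0.06. The 3 stalk proteins thus kept near-equal differences across ages for Rplp0 and Rplp1, while Rplp2 at 60 days was close to wild type. Rpsa, a small-subunit protein also known as the laminin receptor precursor, went the other way. It was at 305.0, 334.2 and 473.2 FPKM in wild type and at 245.1, 258.0 and 317.1 FPKM in the hypomorph, with differences of −0.31, −0.37 and −0.58.

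The members nearest to wild type at 16 days were Rpl10 at −0.14, Rps2 at −0.17, and Rpl9 and Rpl7a, each at −0.19. At 30 days they were Rps10 at −0.15, Rps3 and Rplp0, each at −0.18, and Rpl27 at −0.20. At 60 days Rps10 was at 0.08, Rps26 at −0.01, and Rplp2 and Rps3 at −0.06. Rps10 was at 372.5, 369.1 and 394.9 FPKM in wild type and at 306.4, 332.9 and 417.4 FPKM in the hypomorph. Rps3 was at 425.9, 404.4 and 425.8 FPKM in wild type and at 369.4, 356.7 and 408.0 FPKM in the hypomorph. It was the only gene among the 10 least negative members at each of the 3 ages.

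Which members differed most was similar at neighbouring ages. Rpl36, Rpl37, Rps15 and Rps20 were among the 10 most negative at all 3 ages. The 10 most negative shared 6 genes between 16 and 30 days, 8 between 30 and 60 days, and 6 between 16 and 60 days. Across the 75 members, the differences at 16 and 30 days correlated with r = 0.66, those at 30 and 60 days with r = 0.79, and those at 16 and 60 days with r = 0.45. These correlations are across genes and describe the pooled values. Each age had its own wild-type libraries, but gene-specific effects of length, mapping and shared pseudogene reads are common to all 3 tables.

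Members with and without a pyrimidine run at the annotated start had close differences. An annotated start can lie several bases away from the one used, so this split cannot test the tract itself. With the run, the median difference was −0.41 at 16 and at 30 days and −0.22 at 60 days. Without it, the medians were −0.37, −0.40 and −0.24. Rpl28 and Rpl14, whose runs are printed above, were at −0.59 and −0.61 at 30 days, while Rps10, whose run is also printed, was at −0.15. Nor did the members' differences follow their level, with rank correlations of −0.06 at 16 days, −0.14 at 30 days and −0.00 at 60 days.

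With age, member levels in FPKM were higher in both genotypes, and most of the step lay between 30 and 60 days. From 30 to 60 days the median log2 step was 0.13 in wild type, with 62 members higher and 13 lower, against 40% of all genes higher. In the hypomorph it was 0.27, with 74 members higher and 1 lower, against 49.7% of all genes higher. Between these ages the members' share of all listed FPKM fell from 8.62% to 8.35% in wild type. In the hypomorph that share rose from 6.77% to 7.42%. Mitochondrially encoded genes above 0 numbered 11 at 30 days and 15 at 60 days in wild type, and 14 and 15 in the hypomorph. These totals therefore do not hold the same genes. Without mitochondrially encoded genes both shares rose, from 9.22% to 9.67% in wild type and from 7.25% to 7.99% in the hypomorph. From 16 to 30 days the medians were 0.03 in wild type and −0.00 in the hypomorph. The ages were normalised in separate tables, so these steps have no test and rest on levels set across tables.

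Between 16 and 60 days the largest steps in wild type were those of Rps15 at 0.64, Rpsa at 0.63, Rpl13 at 0.55 and Rplp1 at 0.52. Rps14 at −0.12 and Rplp0 at −0.10 were the lowest. In the hypomorph the largest were Rpl13 at 0.74, Rplp2 at 0.54 and Rplp1 at 0.53, and Rplp0 at −0.10 was the one member lower at 60 days. The listed span of Rpl13 overlaps 158 other genes, so its value is uncertain. At 60 days 71 of 75 members had a less negative difference between genotypes than at 30 days in FPKM as deposited. This order depended on scaling: the median at 30 and 60 days was −0.26 and −0.27 scaled to mitochondrial ribosome and proteasome genes, and −0.23 and −0.25 centred on protein-coding genes of like length.

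Ribosomal protein transcripts are short, and short transcripts as a class stood low in the hypomorph at the earlier ages. The members' median annotated length was 751 bases, against 2609 bases for all compared genes, from 271 bases for Rps28 to 3706 bases for Rps20. The length of the transcripts present in the aorta was not checked, and by its annotated length Rps20 was the only member in its length bin. In the shortest of 20 length bins, the protein-coding genes that are not members had medians of −0.20, −0.28 and −0.03 at 16, 30 and 60 days. Members in that bin had medians of −0.42, −0.48 and −0.22. In that bin the members were therefore lower than the other protein-coding genes at each age.

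Centred on the non-members of like length, the members' median was −0.30 at 16 days, −0.27 at 30 days and −0.25 at 60 days. Against protein-coding non-members alone, a comparison added after the data were seen, it was −0.28, −0.23 and −0.25. Before centring the median at 30 days was −0.41. After centring the 3 ages differed little. Across all compared genes the rank correlation of difference with length was 0.21 at 16 days, 0.31 at 30 days and 0.17 at 60 days. Within the members it was 0.37, 0.17 and −0.16. Per the labels' protocols, RNA with an integrity number above 8 was used. The part that length, RNA quality or library preparation plays in the members' difference was not tested.

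**Figure D3:**
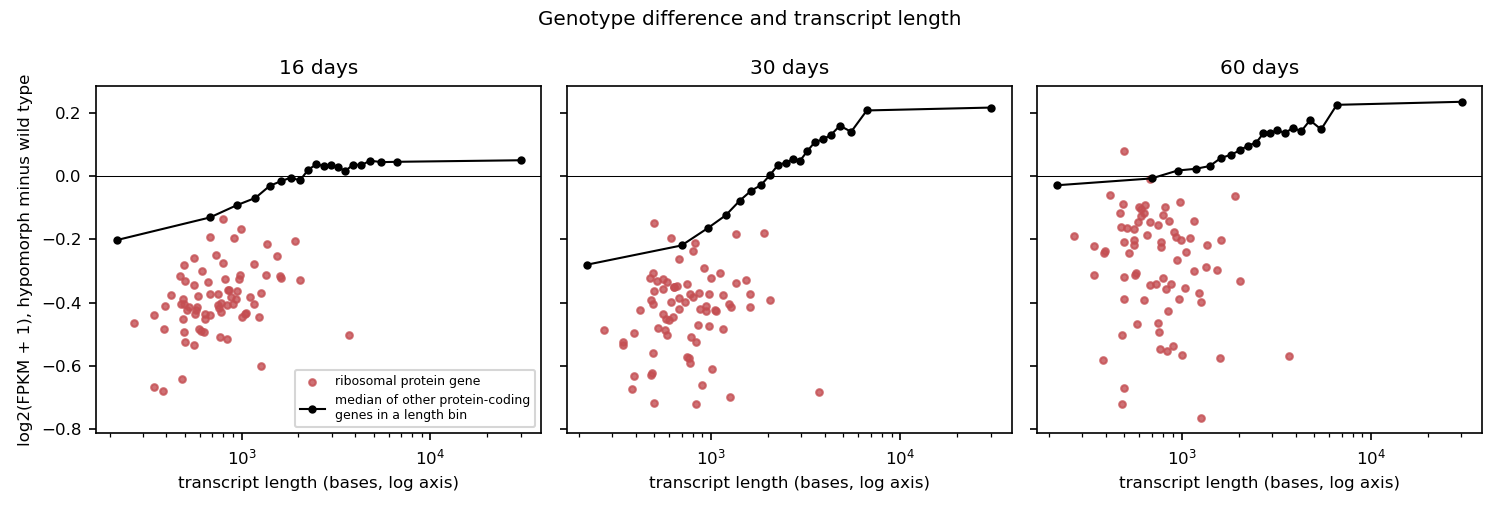
Difference between genotypes, log2(FPKM + 1) of hypomorph minus wild type, against annotated transcript length in bases (log axis) at 16, 30 and 60 days. Red points are the members, and the black line joins the medians of the other protein-coding genes in 20 length bins. In the shortest bin that median is −0.20, −0.28 and −0.03, and most members lie below the line.

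Ribosomal proteins whose symbols fall outside the naming rule had similar values. Fau, which encodes a ubiquitin-like protein fused to a small-subunit protein, was at 585.4, 605.0 and 815.4 FPKM in wild type and at 429.5, 421.8 and 613.8 FPKM in the hypomorph. Its differences were −0.45, −0.52 and −0.41. Rack1, a signalling scaffold on the small subunit, was at 573.6, 550.6 and 573.8 FPKM in wild type and at 448.4, 450.8 and 526.9 FPKM in hypomorph aorta. Its differences were −0.35, −0.29 and −0.12. Neither gene was used in the selection, and each was lower at every age.

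Of the 3 most abundant paralogs left out by the rule, Rps27l and Rpl36al stood higher relative to wild type than their partners. Rps27l, a paralog of Rps27 that p53 can induce, was at 112.3, 118.5 and 110.0 FPKM in wild type and at 95.2, 126.3 and 128.3 FPKM in the hypomorph. It reached 84.9%, 106.6% and 116.7% of wild type, where Rps27 reached 63.0%, 69.0% and 80.5%. Rpl36al, whose protein is nearly identical to that of Rpl36a, reached 82.4%, 86.6% and 109.0%, where Rpl36a reached 64.0%, 64.5% and 70.5%. Rpl22l1 went the other way, at 71.1%, 72.3% and 81.8%, against 80.2%, 79.9% and 92.2% for Rpl22. The less abundant Rpl7l1 was at 28.0, 29.8 and 24.9 FPKM in wild type and at 25.6, 28.8 and 27.3 FPKM in the hypomorph. At 60 days the log2(FPKM + 1) difference was 0.22 for Rps27l, 0.12 for Rpl36al and −0.29 for Rpl22l1. The median of all compared genes at that age was 0.11. No test of the gaps between partners was possible, and reads of near-identical copies may be split between partners. Rpl10l was listed at 0 in every group.

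**Figure D4:**
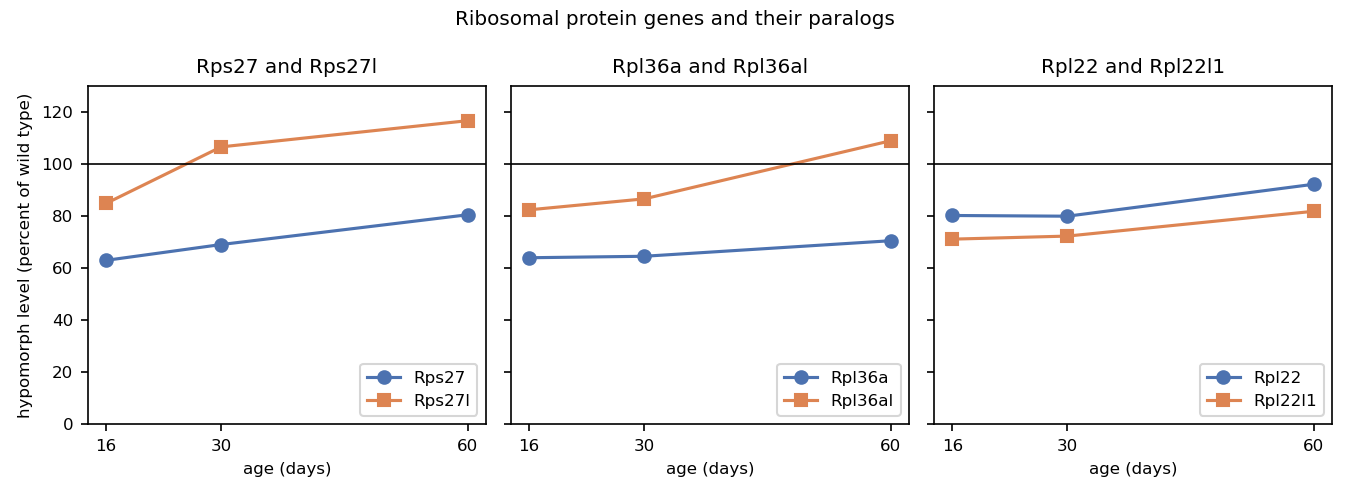
Hypomorph level as a percent of wild type at 16, 30 and 60 days for Rps27, Rpl36a and Rpl22 and for the paralog of each. Rps27l and Rpl36al lie above their partners at all 3 ages, at 84.9% against 63.0% and 82.4% against 64.0% at 16 days, and Rpl22l1 lies below Rpl22.

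Other genes of protein synthesis did not stand as low. The 36 translation factors had medians of −0.05, −0.02 and 0.03 at 16, 30 and 60 days, with 27, 19 and 16 lower in the hypomorph. Their median annotated length was 2260 bases, against 751 bases for the members. The list medians here and below were not centred on length, and the part of length in these gaps was not tested. Eef1a1, which brings transfer RNAs to the ribosome and whose transcript carries a TOP tract, was at 3653.6, 3845.4 and 3624.0 FPKM in wild type and at 3555.0, 3488.9 and 3572.9 FPKM in the hypomorph. Its differences of −0.04, −0.14 and −0.02 were smaller than those of nearly all members. Eif3f, a subunit of an initiation factor, was at −0.46, −0.42 and −0.34, and Eef1d, an exchange factor for elongation, at −0.23, −0.61 and −0.60.

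The 20 genes of a list of TOP transcripts other than the members had medians of −0.21, −0.23 and −0.11, with 17, 16 and 14 lower. This list includes Fau and Rack1. Tpt1, an abundant TOP transcript, was at −0.33, −0.41 and −0.25. Pabpc1, the poly(A)-binding protein, was on the other side at 0.04, 0.19 and 0.13, and Hnrnpa1 at 0.04, 0.28 and 0.21. TOP transcripts outside the ribosome were therefore mixed in direction.

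Ribosome assembly factors did not share this difference. The 43 genes had medians of −0.06, 0.07 and 0.15, with 30, 12 and 13 lower. Rrs1, needed for large-subunit assembly, was at 0.25, 0.57 and 0.29, while Ubtf, a factor of ribosomal RNA transcription, was at −0.27, −0.27 and −0.43. The 77 genes of the mitochondrial ribosome had medians of −0.05, −0.22 and 0.01, with 46, 72 and 37 lower. The authors' deposited table called Mrpl58 of these lower at 16 days with q = 0.00227. It was 1 of 55 tested, against 1.47% of all tested genes. The 32 proteasome genes had medians of −0.02, −0.01 and 0.15, with 20, 19 and 10 lower. The assembly, mitochondrial ribosome and proteasome lists had median lengths of 2597, 1280 and 1523.5 bases, against 751 bases for the members.

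Scaled to the mitochondrial ribosome and proteasome genes, the cytosolic members' median at 30 days was −0.26 instead of −0.41, and the count at least 1.5-fold lower was 0 instead of 11. At 60 days the median scaled to all compared genes was −0.36 instead of −0.24. In both cases the share of members lower stayed above 95%.

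**Figure D5:**
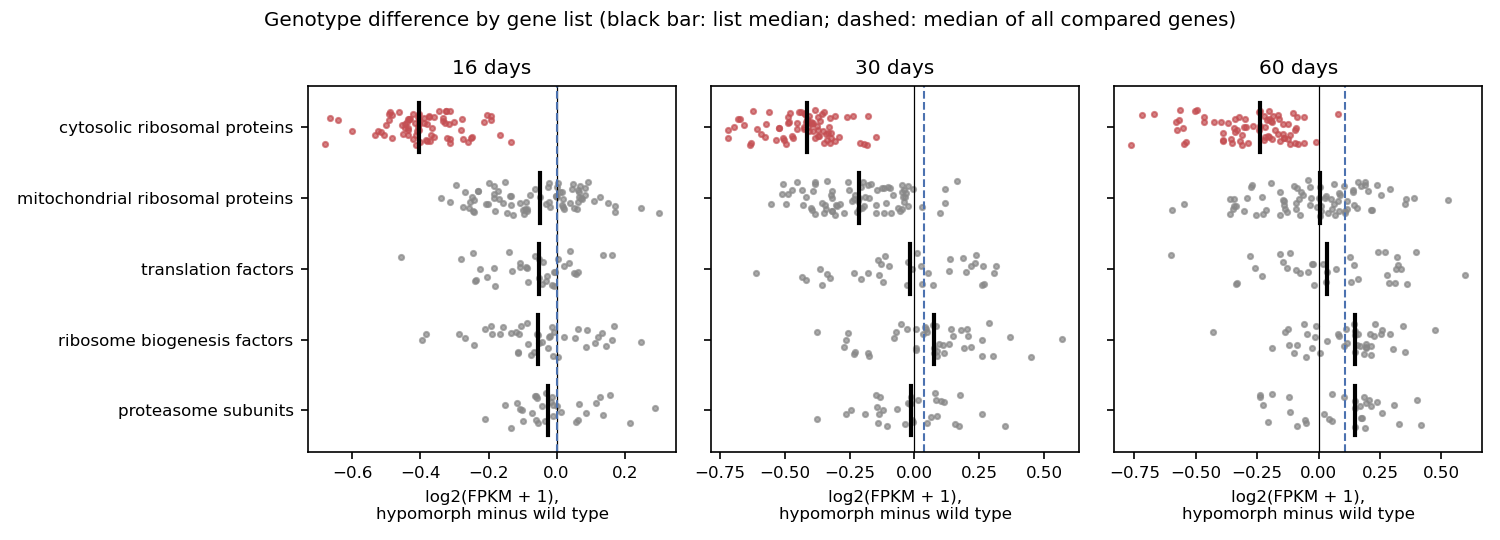
Differences between genotypes, log2(FPKM + 1) of hypomorph minus wild type, 1 point per gene, for the ribosomal protein members and 4 other lists at 16, 30 and 60 days; black bars are list medians and the dashed line is the median of all compared genes. The members' medians of −0.40, −0.41 and −0.24 lie below those of the translation factors, at −0.05, −0.02 and 0.03. The lists differ in transcript length, and the values are not centred on it.

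Processed pseudogenes of ribosomal proteins had similar differences. Of 189 listed genes with a -ps symbol, 103 were above 0 in all groups and 75 were compared, with medians of −0.41, −0.38 and −0.25. Their summed level at 16 days was 1889.4 FPKM in wild type and 1431.6 FPKM in the hypomorph. At 30 days it was 1970.4 against 1447.0 FPKM, and at 60 days 2164.6 against 1757.6 FPKM. These sums are small beside those of the members, and reads of parent and copy cannot be told apart in them. In addition, 43 of the 75 listed spans overlap another gene, and 30 members hold small nucleolar RNA genes. The 32 members without an overlap included 5 at least 1.5-fold lower at 30 days and 1 at 60 days.

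Markers of other cell types also differed between the groups. The 20 macrophage markers summed to 298 FPKM in wild type and 635 FPKM in hypomorph aorta at 16 days, to 436 and 1463 FPKM at 30 days, and to 416 and 2515 FPKM at 60 days. The 9 erythroid markers summed to 9915 and 25802 FPKM, 7799 and 7446 FPKM, and 10373 and 5698 FPKM, with Hbb-bs listed at 0 in the hypomorph at 60 days. Of the 20 lymphocyte markers, 14 were tested at 16 days, with 8 called lower and 1 higher in the authors' deposited table. Of 15 macrophage markers tested there, 3 were called higher and 0 lower. Over all 12738 tested genes, 1.47% were called lower and 2.8% in either direction. The lymphocyte markers summed to 81.3 and 47.4 FPKM, 53.1 and 103.7 FPKM, and 67.8 and 151.3 FPKM. Without Thy1, the most abundant of them, left out after the data were seen, the sums were 65.8 and 7.64 FPKM, 15.3 and 10.5 FPKM, and 9.64 and 48.7 FPKM, which turned the order at 30 days. Smooth muscle markers, 12 genes that check the tissue label, summed to 13296 and 14810 FPKM, 11693 and 8350 FPKM, and 14595 and 12917 FPKM. Acta2 was listed at 0 in both groups at 30 days. Of those compared, 4 of 12, 8 of 11 and 8 of 12 were lower in the hypomorph at the 3 ages. The shares over all compared genes were 49.5%, 45% and 37.4%. The smooth muscle medians were 0.06, −0.44 and −0.23, and single markers lay on both sides at each age.

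Adipocyte markers, 14 genes, summed to 882 and 828 FPKM, 2113 and 898 FPKM, and 1802 and 2420 FPKM in wild type and hypomorph at 16, 30 and 60 days. The part of cell composition in the ribosomal protein differences was not tested.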

How the data were processed

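Polyadenylated RNA of mouse aorta had been sequenced in 19 libraries of 6 groups. Per the submitters' processing notes, reads were processed on mm9 with Cufflinks 1.3.0, TopHat2 2.0.8, SAMtools 0.1.7 and Bowtie2 2.1.0. Per the file headers, the authors deposited 1 FPKM per gene and group, and at 16 days also the p-value, q-value and statistic of their test. Their log2 ratio there is wild type over hypomorph; the sign was reversed here. Annotation, settings and strand handling are not given in the sources used here. Depth is unknown, so no interval was computed. Wild type was listed 3 times at 30 and 60 days (listings differed for 17 and 11 genes, 0 of them members; the larger value was kept), and 2 row groups matching no label were not used.

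Symbols were matched for 32638 genes. Differences were log2(FPKM + 1) of hypomorph minus wild type for genes above 0 in both groups whose mean was at least 1 FPKM. Folds are plain ratios. Lengths came from GENCODE M21. The named members were the 5 highest and 5 lowest by level, the 4 most and 4 least negative at each age, the stalk proteins, Rpsa, the shortest and longest, and the extremes of the mean difference; of other lists, the extreme genes. Rpl28, Rpl14, Rpl35, Rps6, Rpl29, Rpl11, Rpl13, Rpl22, Tpt1, Eef1a1 and the paralogs were chosen after their values were seen. A few genes picked by this rule are left unreported. Members and lists were chosen with earlier results of these data known. The plan allowed for values per library, which these pooled tables do not hold. Calculations in pandas 2.3.3, numpy 2.4.6 and scipy 1.17.1 under Python 3.11.15 were tested on simulated data, and were plotted with matplotlib 3.10.9.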

Additional observations from a re-analysis of the deposited data

How the results depend on the processing

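A pseudocount of 0.1, no filter or a filter of 5 FPKM moved the members' median by less than 0.05 log2 at each age, and no member was called at 16 days with a filter of 5 FPKM and new adjustment or at q below 0.1, the alternatives run for calls. Centred on non-members of like transcript length, the median was −0.295 at 16 days and −0.269 at 30 days, and 0, 1 and 5 members were at least 1.5-fold lower at 16, 30 and 60 days. With protein-coding non-members, chosen after seeing the data, it was −0.276 and −0.225, with counts of 0, 1 and 5. Scaled by mitochondrial ribosomal protein and proteasome genes, the median at 30 days was −0.261, with counts of 0 at 30 days and 8 at 60 days. Scaling by the median ratio gave −0.363 and a count of 14 at 60 days. Without members whose span overlaps another gene the counts were 5 at 30 days and 1 at 60 days, from fewer genes. The log2 ratio of summed shares at 60 days was −0.17, and −0.274 without mitochondrially encoded genes. The causes of the other shifts were not tested. At 30 days Rps10 was higher under the mitochondrial and proteasome scaling and under both length centrings, with Rpl27 and Rps7 under the protein-coding one. At 60 days all 75 members were lower when scaled by the median ratio. Centred on non-members of like length, Rplp2 joined Rps10 on the higher side at 60 days. No paired analysis was possible because the tables hold pooled values only, and leaving out replicates was not run for the same reason. How depth limits the values is unknown, since no counts were at hand.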

Other observations

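A list of 18 genes known to respond to disturbed ribosome assembly or translation, or to control growth, had median log2(FPKM + 1) differences of 0.01, 0.12 and 0.21 at 16, 30 and 60 days, beside 0.00, 0.04 and 0.11 for all compared genes. Of the 12 tested at 16 days, 0 were called at q below 0.05 in the authors' deposited table, against 2.8% of all tested genes. Members of the list lay on both sides. Cdkn1a, a p53 target that stops the cell cycle, was at 42.1, 40.5 and 31.6 FPKM in wild type at 16, 30 and 60 days and at 49.4, 66.1 and 66.3 FPKM in the hypomorph. Mdm2 and Ccng1, also p53 targets, had log2(FPKM + 1) differences of 0.12, 0.44 and 0.68, and of 0.08, 0.51 and 0.60. Myc, a driver of ribosomal protein transcription, was at −0.03, 1.11 and 0.81. Ddit3 and Trib3, targets of the integrated stress response, stood on the other side, at −0.25, −0.76 and −0.42 and at −0.12, −0.55 and −0.91. Atf4 was at −0.40, −0.27 and 0.13, and the p53 target Bbc3 at 0.25, 0.07 and 0.02. These values are pooled and untested at 30 and 60 days, and the genes named were chosen after their values were seen.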
